A study of Mus musculus with 23 samples.

Results

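The collagens of the mouse testis were followed in vivo and in explant culture through the 44 collagen genes of the raw count table, which lists 27466 genes in all. They are the rows whose NCBI mouse gene identifier maps to a symbol made of Col, digits, a and digits. By the structure of the protein they divide into 11 fibrillar chains, 6 chains of the basement membrane collagen (type IV) and 27 other chains. The other chains comprise 6 of type VI, 9 FACITs (fibril-associated collagens with interrupted triple helices), 2 multiplexins, 3 short-chain network collagens, 4 transmembrane collagens and 3 that fit none of these. The genes lie on 15 chromosomes, and all 44 passed the filter on low counts.

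All tissue came from wild-type CD-1 mice (genotype wt in the labels), and poly(A) RNA of whole testicular tissue, germ and somatic cells together, was sequenced. The in vivo groups were testes at 6.5 days postpartum (dpp), used fresh or after controlled slow freezing (CSF) and thawing, and testes at 10.5, 22.5 or 36.5 dpp, all fresh. The in vitro groups were fragments of 6.5 dpp testes cultured for 4, 16 or 30 days (D4, D16, D30) in α-MEM with KnockOut serum replacement, gentamicin and retinol, started from fresh tissue and, at D30, also from CSF tissue. By age, D4 corresponds to 10.5 dpp, D16 to 22.5 dpp and D30 to 36.5 dpp. Each culture library pooled several explants, and their necrotic centre was cut away before RNA extraction, so a cultured sample is the outer part of the tissue while an in vivo sample is a testis. The tunica albuginea, the collagen-rich capsule of the testis, was taken off the testes used for culture; whether it was taken off the older testes is not given in the sources used here.

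Collagens are trimers of α chains wound into a triple helix, and each chain is the product of its own gene. Fibrillar collagens assemble into the fibrils that give the interstitium and the tubule wall their tensile strength, whereas type IV collagen forms the sheet-like network of basement membranes. In the testis the basement membrane of the seminiferous tubule is laid down jointly by Sertoli cells and peritubular myoid cells, and spermatogonia rest on it. Type IV trimers have fixed compositions: the ubiquitous one holds α1 and α2 chains, while α3, α4 and α5 join in a second trimer known from kidney and testis.

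The chains of type IV collagen are encoded by gene pairs that lie head to head, and sequence near their starts is shown because the genes of a pair had like courses. Gene spans are from RefSeq on GRCm38 and strands from GENCODE M21. Col4a1 (chr8:11198423-11312889, minus strand) and Col4a2 (chr8:11312805-11449287, plus strand) overlap at their 5′ ends by 85 bases. Col4a4 (chr1:82448419-82587034, minus strand) and Col4a3 (chr1:82586921-82722059, plus strand) overlap by 114 bases, and 1274 bases separate Col4a6 (chrX:141165403-141474095, minus strand) from Col4a5 (chrX:141475370-141689236, plus strand). RefSeq promoter windows (GRCm38.p6, 250 bases before to 50 after the start) were at hand for 35 of the 44 genes, 38 windows in all. The Col4a1 and Col4a2 windows share 78 bases (chr8:11312777-11312854). Sequence is shown for that pair, for a gene of the other pair, for a fibrillar chain that fell with age and for a FACIT that rose. For Col4a1 and Col4a2 it is the 30 bases around the CCAAT letters, and for the rest it is the longest run before the start site that lies outside annotated UTRs and coding exons. The start used for the RefSeq window of Col20a1 lies inside the gene span, and so does that of Col4a4. Both stretches thus lie before that start but within the gene. Each runs 5′ to 3′ on the gene's strand, and capitals mark CCAAT or GGGCGG or the reverse complement of either.
Col4a1 (chr8:11312954-11312983, minus strand): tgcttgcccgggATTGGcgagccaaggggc
Col4a2 (chr8:11312761-11312790, plus strand; the opening capitals end a reverse GGGCGG): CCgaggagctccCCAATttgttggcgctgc
Col4a4 (chr1:82586850-82586975, minus strand): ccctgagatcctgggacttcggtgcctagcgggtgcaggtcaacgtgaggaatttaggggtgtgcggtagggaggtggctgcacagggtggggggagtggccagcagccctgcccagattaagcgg
Col1a2 (chr6:4505370-4505492, plus strand): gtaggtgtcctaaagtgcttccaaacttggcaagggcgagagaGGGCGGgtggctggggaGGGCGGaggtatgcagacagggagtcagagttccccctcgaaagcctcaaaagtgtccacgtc
Col20a1 (chr2:180986285-180986534, plus strand): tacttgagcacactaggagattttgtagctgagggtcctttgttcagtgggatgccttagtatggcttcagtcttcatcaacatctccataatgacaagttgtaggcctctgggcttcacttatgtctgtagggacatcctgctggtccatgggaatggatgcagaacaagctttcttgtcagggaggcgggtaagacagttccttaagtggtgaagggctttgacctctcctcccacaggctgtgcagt
The whole 300-base Col4a1 and Col4a2 windows held CCAAT in 1 place each and GGGCGG in 1 and 3 places, Col1a2 held each of them in 2 places, and Col4a4 and Col20a1 held neither. CCAAT, read on both strands, was present in 13 of the 38 collagen windows (34.2%) and in 37.4% of all 32851 RefSeq windows. GGGCGG, read on both strands, was present in 23 of the 38 (60.5%) and in 35.7% of all windows. TATAAA, read on both strands, was present in 5 of the 38 (13.2%) and in 13.6% of all windows. These are letter matches only.

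The table holds 23 libraries, of which 21 were used, with 28351546 to 69029328 counts each. In vivo there were 4 libraries of 6.5 dpp (1 fresh, 3 CSF), 3 each of 10.5 and 22.5 dpp and 2 of 36.5 dpp. The cultures gave 3 libraries of D4, 2 of D16 and 4 of D30 (3 fresh, 1 CSF). Of the fresh 6.5 dpp libraries, replicate 3 was identical to replicate 2 in every gene and was counted once. Fresh replicate 1 went against its label and was left out: its Col26a1 level of 1.43 counts per 1000000 (CPM) lay among the D16 and D30 libraries (0.804 to 2.66) and far from the other 6.5 dpp libraries (46.8 to 75.2), and collagen genes took 0.543% of its counts. Among the libraries kept, 6.5 dpp CSF replicate 3 stood apart, with 0.413% against 1.02% to 1.14% in the other 3, so values at 6.5 dpp are given with and without it. Markers of the testis were present throughout, the summed level of 6 Sertoli cell genes running from 133 to 2212 CPM and that of 5 Leydig cell genes from 213 to 1925 CPM. Levels below are CPM on library totals, listed as fresh replicate 2 and CSF replicates 1 to 3 at 6.5 dpp, as fresh replicates 1 to 3 and then the CSF library at D30, and in replicate order elsewhere. Differences are log2 fold changes ± SE from edgeR's quasi-likelihood test over 19255 genes in all 21 libraries, on TMM-scaled libraries. TMM factors of 0.645 to 0.661 at 36.5 dpp, against 0.877 to 1.15 in the other libraries, make these differences smaller for genes low at 36.5 dpp than the ratio of CPM. A gene was called where the Benjamini-Hochberg adjusted p was under 0.05. The study's methods call the culture libraries biological replicates made of pooled explants, but the labels do not say whether replicates came from separate animals or cultures. The p-values measure the spread between these libraries, which may be partly technical. In bulk tissue, fewer cells of a type and less collagen mRNA per cell cannot be told apart.

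Collagen mRNA was abundant in the young testis and scarce at 36.5 dpp, and in culture it stood above the starting tissue at D4 and, by group mean, below it later. The 44 genes took 0.907% ± 0.333 (SD, n = 4) of counts at 6.5 dpp (1.07% without CSF replicate 3) and 0.948% ± 0.0492 (SD, n = 3) at 10.5 dpp. They took 0.263%, 0.395% and 0.258% in the 22.5 dpp libraries and 0.0824% and 0.112% at 36.5 dpp. The 3 D4 libraries, at 1.27%, 1.62% and 1.5%, were above every in vivo library. The D16 libraries stood at 0.457% and 0.513%, and the D30 libraries at 0.359%, 0.253%, 0.430% and 0.281%, so that all 4 D30 libraries were above both 36.5 dpp libraries. With 2 to 4 libraries a group these shares are given as levels, and the tests below are per gene.

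**Figure D1:**
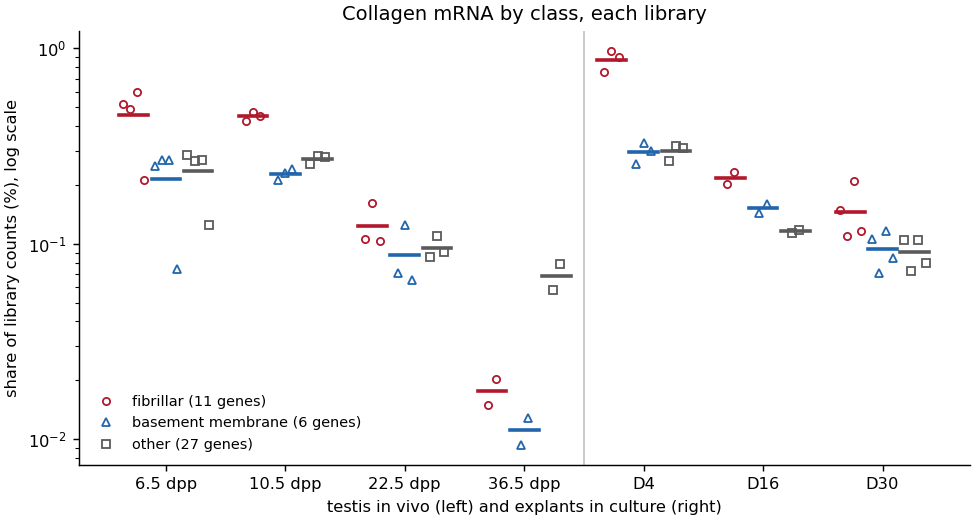
Share of library counts (percent, log axis) taken by the fibrillar, basement membrane and other collagen genes at 4 ages in vivo and 3 culture times; each point is a library and each bar a group mean. Fibrillar and basement membrane shares drop from 10.5 to 36.5 dpp by more than the other collagens, and the cultures keep more of both than the age-matched testis at D30.

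The mix of collagens differed between groups as well as the amount. Fibrillar chains supplied 50.4% ± 2.26 (SD, n = 4) of all collagen counts at 6.5 dpp, 59.7% ± 0.316 (SD, n = 3) at D4 and 18.3% ± 0.0158 (SD, n = 2) at 36.5 dpp. Type IV chains supplied 22.9% ± 3.46 (SD, n = 4), 20.0% ± 0.309 (SD, n = 3) and 11.4% ± 0.124 (SD, n = 2) at the same points. The FACITs went the other way, from 1.57% ± 0.238 (SD, n = 4) at 6.5 dpp to 55.2% ± 0.662 (SD, n = 2) at 36.5 dpp, where Col22a1 alone supplied 30.0% ± 1.31 (SD, n = 2). In CPM terms 26 of the 44 genes had their lowest group mean at 36.5 dpp. D4 was the group with the highest mean for 18 genes, more than any other group. The same counts over all genes are not given, so whether these are unusual cannot be told. Levels on library totals are lower at 36.5 dpp than TMM-scaled ones for genes in general (TMM factors of 0.661 and 0.645). The heat map of group means sets the 44 courses side by side.

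**Figure D2:**
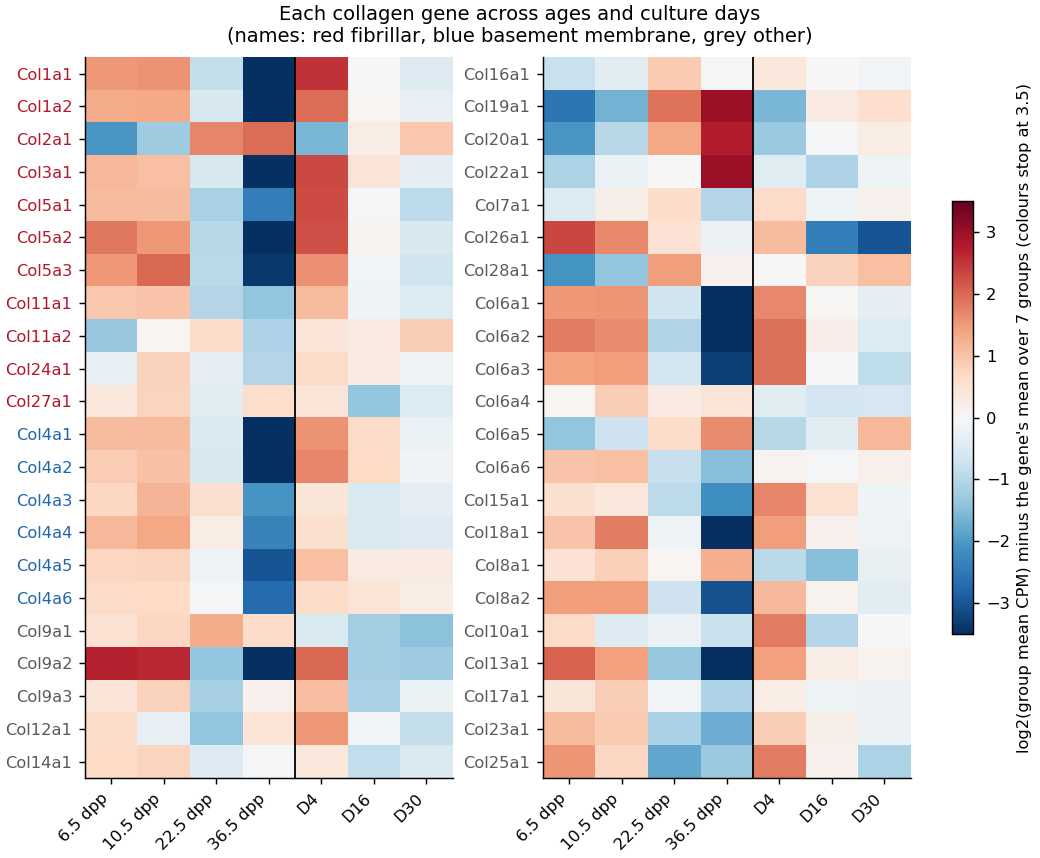
Group mean level of each of the 44 collagen genes across 4 ages and 3 culture times, as log2 CPM minus the gene's own mean over the 7 groups. Most fibrillar and type IV genes are blue (low) at 36.5 dpp and red (high) at 6.5 dpp, 10.5 dpp and D4, whereas Col22a1, Col20a1, Col2a1 and Col19a1 run the other way.

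Between 6.5 and 10.5 dpp no collagen gene was called by edgeR, where 1.14% of all genes were. At an unadjusted p under 0.05 there were 9 of 44, DESeq2 called 1 (Col11a2), and edgeR called 1 without CSF replicate 3 or without fresh replicate 2.

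Between 10.5 and 22.5 dpp most fibrillar genes, both genes of the α1 and α2 network of type IV and the 3 main genes of type VI fell. Of the 44 genes, 26 fell and 6 rose, against 27.9% and 33.6% of all genes tested. Among the fibrillar genes 7 of 11 fell and 1 rose, among the type IV genes 4 of 6 fell, and among the others 15 of 27 fell and 5 rose. The median log2 fold change was -0.92 over the 44 genes and 0.06 over all genes. The 6 that rose were Col2a1, Col6a5, Col16a1, Col19a1, Col20a1 and Col28a1.

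Between 22.5 and 36.5 dpp all 6 type IV genes fell and a set of FACITs rose. In all 20 collagen genes fell and 10 rose, against 27.5% and 23.3% of all genes, and scaling by library size alone gave 24 lower and 5 higher. Fibrillar genes fell in 6 of 11 cases and rose in 1 (Col27a1), and among the other 27 there were 8 that fell and 9 that rose. Median log2 fold changes were -1.21 for the fibrillar, -2.21 for the type IV and -0.18 for the other genes, against -0.13 over all genes; with RLE factors the last class had a median of 0.0. Over the whole span from 6.5 to 36.5 dpp, 26 fell and 11 rose, against 37.9% and 39.7% of all genes, and scaling by library size alone gave 27 and 6.

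Markers of cell types moved in the same window. The summed level of 5 spermatid markers went from at most 5.03 CPM at 6.5 and 10.5 dpp to 16099 and 20158 CPM at 36.5 dpp, while 6 Sertoli markers went from 1414 to 2122 CPM at 6.5 dpp to 133 and 155 CPM and 5 interstitial stroma markers from 1173 to 2079 CPM to 85.6 and 194 CPM. The sum of 6 peritubular myoid markers was 810 to 948 CPM at 6.5 dpp and 353 and 403 CPM at 36.5 dpp. All 6 Sertoli and all 5 stroma markers fell between 10.5 and 22.5 dpp. Leydig markers went the other way, their sum being 595 to 922 CPM at 6.5 dpp and 1549 and 1925 CPM at 36.5 dpp, with 4 of 5 called higher and none lower. All 5 macrophage markers rose from 10.5 to 22.5 dpp and 4 fell from 22.5 to 36.5 dpp. Against 6.5 dpp, 3 macrophage markers were higher at 36.5 dpp and none lower, while 4 of 5 endothelial markers were lower and none higher. The part of these shifts in the collagen differences was not tested.

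After 4 days in culture 4 fibrillar genes, Col1a1, Col3a1, Col5a1 and Col11a2, were higher than at 6.5 dpp, the age at which the cultures started. Against 6.5 dpp, 9 collagen genes rose and 2 fell (10.8% and 10.1% of all genes), among them 4 fibrillar genes that rose and no type IV gene. The count of 11 includes Col26a1, whose level was among the grounds for leaving out fresh replicate 1, and with that library kept it was 4 (Col1a1, Col3a1, Col5a1 and Col15a1). It became 16 without 6.5 dpp CSF replicate 3, 2 in the fresh libraries alone, 6 without D4 replicate 2 and 7 without D4 replicate 3. From D4 to D16 the direction turned: 20 genes fell and 2 rose, against 5.48% and 18.4% of all genes, with 8 of 11 fibrillar genes falling and no type IV gene called. Without D16 replicate 1 there were 11 called genes in place of 22. From D16 to D30 edgeR called no collagen gene (1.79% of all genes); 13 had an unadjusted p under 0.05, DESeq2 called 3 (Col9a3, Col6a5 and Col25a1), and edgeR called 3 without 6.5 dpp CSF replicate 3 and 2 without D16 replicate 1.

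Cell type markers moved within culture as well. At D4 against 6.5 dpp all 5 macrophage and 3 of 5 Leydig markers fell, the macrophage sum being 59.5 to 95.7 CPM at 6.5 dpp and 30.6 to 35.0 CPM at D4. Of the stroma markers 1 rose and 1 fell, and of the Sertoli and of the endothelial markers 2 rose and 1 fell. Of the 6 peritubular myoid markers 2 fell and none rose, their sum being 810 to 948 CPM at 6.5 dpp and 381 to 586 CPM at D4. From D4 to D16 all 5 macrophage and all 5 spermatid markers rose, the macrophage sum reaching 119 and 139 CPM, and 1 marker each of stroma, Sertoli, Leydig, endothelial and peritubular myoid cells fell. The part of these shifts in the collagen differences was not tested.

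Set against testis of matched age, few collagen genes were called at D4 in the main fit and most were at D30, with all type IV genes higher at the later time. The D4 and D16 counts depended strongly on the libraries fitted. At D4 against 10.5 dpp, 6 collagen genes were higher and 1 lower, against 4.92% and 3.18% of all genes. At D16 against 22.5 dpp, 10 were higher and 5 lower, against 14.0% and 11.8%, and RLE factors gave 8 and 7. At D30 against 36.5 dpp, 22 were higher and 13 lower, against 32.4% and 35.0%, and scaling by library size alone gave 25 and 9. All 6 type IV genes were among the 22, with 6 fibrillar genes and 10 others. Scaling by library size alone gave 3 higher and 1 lower at D4. The D4 count was 14 without 6.5 dpp CSF replicate 3, 3 without 10.5 dpp replicate 1 or D4 replicate 1, 4 without 10.5 dpp replicate 3 or D4 replicate 2, and 29 when only the libraries of these groups were fitted. The D16 count was 26 without 6.5 dpp CSF replicate 3, 2 without D16 replicate 2, 8 without 22.5 dpp replicate 1 and 9 without 22.5 dpp replicate 3. The shares of all genes called in these alternative fits are not given. Whether such counts are particular to collagen genes therefore cannot be told.

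Marker levels differed in these pairs too. At D30 against 36.5 dpp all 6 Sertoli and all 5 stroma markers were higher and all 5 spermatid and all 5 Leydig markers lower, the spermatid sum being 357 to 1691 CPM at D30. At D16 against 22.5 dpp all 6 Sertoli and 3 of 5 stroma markers were higher and all 5 Leydig markers lower, while 4 of 5 endothelial markers were higher at both D16 and D30. At D4 against 10.5 dpp 4 of 5 macrophage and 3 of 5 Leydig markers were lower, 2 endothelial markers were higher and 1 lower, 1 of 5 stroma markers was higher and no Sertoli marker was called. Of the 6 peritubular myoid markers 1 was lower at D4 and none higher, their sum being 381 to 586 CPM at D4 and 863 to 966 CPM at 10.5 dpp. At D30 against 36.5 dpp 4 of 5 macrophage markers and 4 of 6 peritubular myoid markers were higher, and 1 myoid and 1 endothelial marker were lower. The part of this in the collagen differences was not tested.

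**Figure D3:**
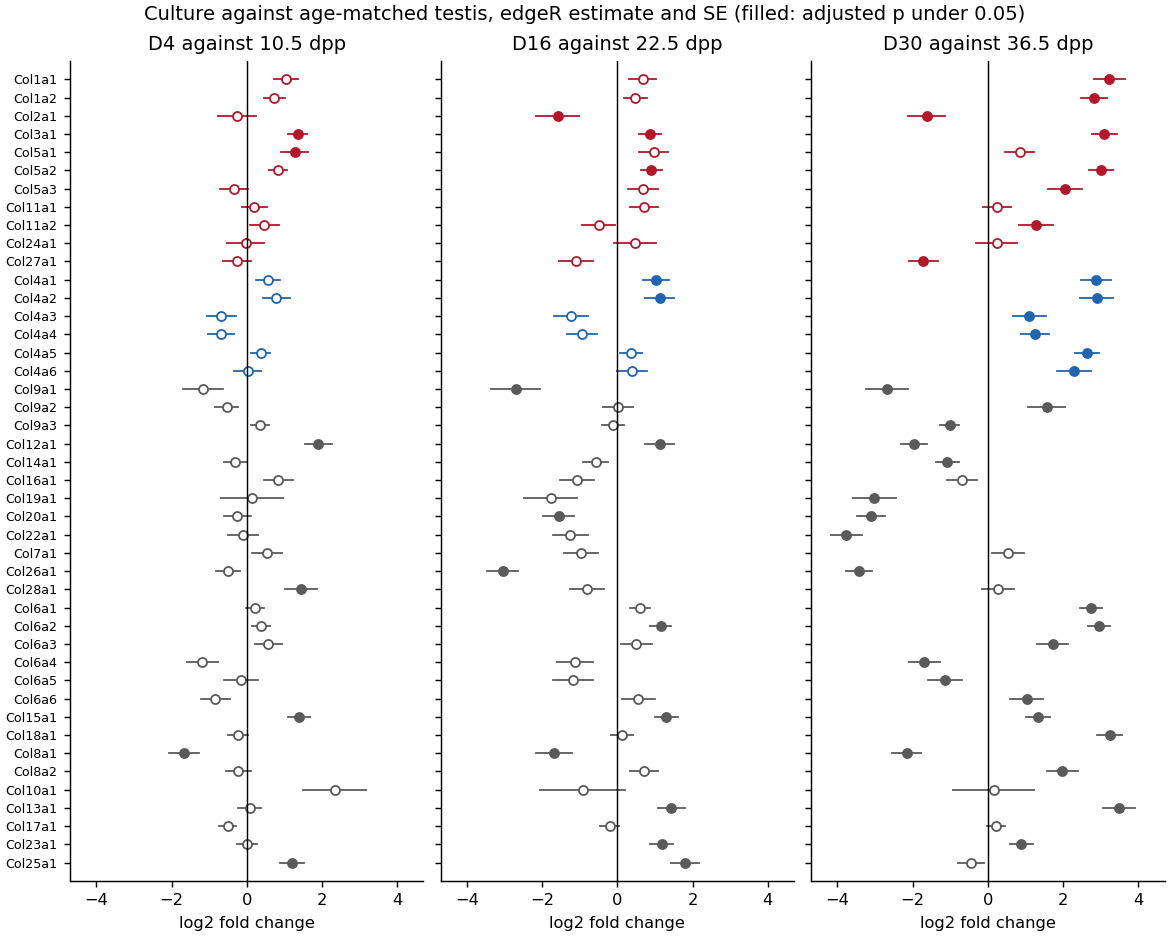
Log2 fold change of each collagen gene in culture against testis of matched age, at D4, D16 and D30; points are edgeR estimates, lines 1 SE either side, and filled points have an adjusted p under 0.05. The 6 type IV genes (blue) all lie right of 0 and filled at D30 against 36.5 dpp, where Col22a1, Col26a1 and Col20a1 lie farthest left.

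Type I and type III collagen, the bulk of interstitial fibrils, fell in both later age steps, and Col1a1 and Col3a1 rose within 4 days of culture. Col1a1 (NCBI gene 12842, chr11:94936224-94953042) encodes the α1 chain of type I collagen, the main fibril of most tissues. In vivo Col1a1 was at 1014, 968, 1164 and 339 CPM at 6.5 dpp, 838, 999 and 909 at 10.5 dpp, 142, 244 and 130 at 22.5 dpp and 13 and 17.2 at 36.5 dpp. The cultures held 1485, 1962 and 1880.2 CPM at D4, 290 and 311 at D16 and 231, 163, 321 and 175 at D30. Both 36.5 dpp libraries lay below every other library, and the D4 libraries were the highest. Col1a2 (NCBI gene 12843, chr6:4505618-4541543), whose upstream sequence is printed above, encodes the α2 chain of the same trimer. The level of Col1a2 was 1764, 1732, 2024 and 767 CPM at 6.5 dpp, 1548, 1617 and 1629.5 at 10.5 dpp, 380, 564 and 358 at 22.5 dpp and 40.7 and 52.7 at 36.5 dpp. Cultured tissue was at 2135, 2739.5 and 2606 CPM at D4, 587 and 748 at D16 and 497, 362, 794 and 428 at D30. The D4 libraries were again above all others, and the D30 libraries overlapped those of 22.5 dpp. Col3a1 (NCBI gene 12825, chr1:45311538-45349706) encodes the homotrimeric type III collagen of pliable tissues. Col3a1 stood at 1853, 1666, 2141 and 827 CPM at 6.5 dpp, 1399.7, 1607 and 1468 at 10.5 dpp, 423, 631 and 432 at 22.5 dpp and 37.9 and 47.7 at 36.5 dpp. In culture the level was 3139.9, 3991 and 3621 CPM at D4, 932 and 1062 at D16 and 591, 452, 802 and 453 at D30. The D4 libraries held more Col3a1 than any in vivo library, without overlap.

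From 10.5 to 22.5 dpp the log2 fold change was -2.14 ± 0.33 (adjusted p = 3.01e-05) for Col1a1, -1.60 ± 0.29 (adjusted p = 0.00013) for Col1a2 and -1.31 ± 0.26 (adjusted p = 0.000355) for Col3a1. From 22.5 to 36.5 dpp it was -2.98 ± 0.41 (adjusted p = 2.15e-05), -2.69 ± 0.35 (adjusted p = 1.39e-05) and -3.01 ± 0.33 (adjusted p = 2.13e-06) for the same genes. All 3 genes thus fell at each step. At D4 Col3a1 exceeded 6.5 dpp by 1.19 ± 0.24 (adjusted p = 0.00185) and 10.5 dpp by 1.35 ± 0.26 (adjusted p = 0.00288), and the second call held in every alternative fit. For Col1a1 the D4 values were 1.07 ± 0.30 (adjusted p = 0.0158) against 6.5 dpp and 1.04 ± 0.32 (adjusted p = 0.0561) against 10.5 dpp. The latter was short of the threshold although the D4 and 10.5 dpp libraries did not overlap. The rise of Col1a1 from 6.5 dpp to D4 was lost without D4 replicate 2 or 3, the adjusted p running from 0.00533 to 0.215 over the alternative fits. From D4 to D16 Col1a1 fell, with a log2 fold change of -2.51 ± 0.40 (adjusted p = 0.000107). At D30 the 3 genes were above 36.5 dpp by 3.23 ± 0.41 (adjusted p = 3.66e-06) for Col1a1, 2.83 ± 0.35 (adjusted p = 3.05e-06) for Col1a2 and 3.10 ± 0.33 (adjusted p = 6.29e-07) for Col3a1. The Col1a1 to Col1a2 ratio per kilobase of transcript was 0.516 ± 0.0365 (SD, n = 3) at 10.5 dpp, 0.291 ± 0.00442 (SD, n = 2) at 36.5 dpp and 0.641 ± 0.0124 (SD, n = 3) at D4.

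Type V collagen is built into the core of type I fibrils and limits their thickness. Col5a1 was at 293, 318, 353 and 90.8 CPM at 6.5 dpp, 248, 268 and 280 at 10.5 dpp, 44.2, 84.1 and 38.7 at 22.5 dpp and 17 and 28.8 at 36.5 dpp. In the explants it stood at 544, 675 and 582 CPM at D4, 113 and 126 at D16 and 70.9, 48.2, 89.8 and 50.1 at D30. Every D4 library of Col5a1, the main type V chain, was above every in vivo library. In vivo Col5a2 was at 166, 157, 221 and 83 CPM at 6.5 dpp, 123, 121 and 129 at 10.5 dpp, 19.6, 29.2 and 18.4 at 22.5 dpp and 2.29 and 2.44 at 36.5 dpp. The explants held 186, 240 and 202 CPM at D4, 41.9 and 50.3 at D16 and 28.8, 23.4, 42.6 and 23.5 at D30. Col5a2, its partner chain, was lowest at 36.5 dpp, and its D4 libraries overlapped those of 6.5 dpp. The level of Col5a3 was 36.8, 27.8, 61.9 and 11 CPM at 6.5 dpp, 46.1, 50.7 and 49.3 at 10.5 dpp, 5.89, 8.20 and 4.65 at 22.5 dpp and 1.10 and 1.21 at 36.5 dpp. Culture values were 29.2, 40.1 and 39.1 CPM at D4, 10.5 and 11.9 at D16 and 9.03, 6.23, 8.24 and 6.40 at D30. Col5a3, a minor chain, lay below its 10.5 dpp range in all D4 libraries. From 10.5 to 22.5 dpp all 3 fell, with log2 fold changes of -1.98 ± 0.37 (adjusted p = 0.000163) for Col5a1, -2.20 ± 0.26 (adjusted p = 1.73e-06) for Col5a2 and -2.68 ± 0.38 (adjusted p = 1.25e-05) for Col5a3. Over the whole age span Col5a2 changed by -5.29 ± 0.36 (adjusted p = 6.63e-10), among the 3 largest falls of the family. At D4 Col5a1 was higher than at 10.5 dpp by 1.27 ± 0.36 (adjusted p = 0.0356), while the estimate for Col5a2, 0.83 ± 0.25 (adjusted p = 0.0507), missed the threshold. The Col5a1 call was lost without any single 10.5 dpp or D4 library, with an adjusted p from 6.94e-06 to 0.128 over the alternative fits.

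The type XI chains take the place of type V in cartilage fibrils. Col11a1 stood at 17.5, 20.0, 25.8 and 7.55 CPM at 6.5 dpp, 19.8, 16.7 and 18.8 at 10.5 dpp, 4.62, 5.46 and 3.64 at 22.5 dpp and 5.02 and 2.16 at 36.5 dpp. In culture it was at 18.7, 22 and 19.1 CPM at D4, 7.44 and 9.16 at D16 and 7.75, 6.36, 8.01 and 4.32 at D30. Col11a1 was lower in all 22.5 and 36.5 dpp libraries than in the 6.5 and 10.5 dpp libraries. Col11a2 was at 3.90, 4.58, 3.58 and 0.882 CPM at 6.5 dpp, 7.45, 9.43 and 8.60 at 10.5 dpp, 11.9, 14.9 and 11.4 at 22.5 dpp and 2.49 and 5.17 at 36.5 dpp. The cultures held 10.2, 10.2 and 12.8 CPM at D4, 6.96 and 13.1 at D16 and 16.8, 10.7, 19.8 and 11.2 at D30. Col11a2, its partner, was higher in every D4 library than in any 6.5 dpp library used, by 1.81 ± 0.37 (adjusted p = 0.00194). The left-out 6.5 dpp fresh replicate 1 held 19.4 CPM of it, above every D4 library. With that library kept the gene was not called, the adjusted p reaching 0.467 over the alternative fits. Col24a1 and Col27a1, fibrillar chains whose helix has short interruptions, reached at most 6.07 and 12.6 CPM in any library.

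Col2a1, the chain of cartilage fibrils, had the largest rise of the fibrillar genes with age. On TMM-scaled libraries Col11a2 and Col27a1 were also higher at 36.5 than at 6.5 dpp, and 7 of the 11 were lower. On library totals both overlapped between these ages. Col11a2 was at 2.49 and 5.17 CPM at 36.5 dpp against 0.882 to 4.58 at 6.5 dpp, and Col27a1 at 8.46 and 12.0 against 3.49 to 12.6. In vivo Col2a1 was at 2.07, 2.06, 1.92 and 0.741 CPM at 6.5 dpp, 2.45, 2.95 and 3.33 at 10.5 dpp, 23.9, 17.5 and 26.2 at 22.5 dpp and 21.7 and 32.6 at 36.5 dpp. Cultured tissue was at 2.23, 2.30 and 2.33 CPM at D4, 12.5 and 4.20 at D16 and 26.9, 12.9, 6.30 and 7.46 at D30. All 22.5 and 36.5 dpp libraries were above all 6.5 and 10.5 dpp libraries used, and the D16 and D30 libraries were spread widely. The left-out 6.5 dpp fresh replicate 1 held 20.5 CPM of Col2a1, above 22.5 dpp replicate 2 (17.5). Col2a1 rose by 3.26 ± 0.53 (adjusted p = 4.28e-05) from 10.5 to 22.5 dpp and by 1.93 ± 0.54 (adjusted p = 0.0136) from D4 to D16. At D30 it was below 36.5 dpp, with a log2 fold change of -1.63 ± 0.49 (adjusted p = 0.00698). The call of D16 against D4 was lost without D16 replicate 1 and that of D30 against 36.5 dpp without 36.5 dpp replicate 2, the adjusted p reaching 0.542 and 0.141. The summed level of 4 cartilage markers went from 7.02 to 19.5 CPM at 6.5 dpp to 282 and 500 CPM at 36.5 dpp, almost all of it Comp. Acan, the cartilage aggrecan, went the other way, from 1.48 to 8.50 CPM at 6.5 dpp to 0.416 and 1.18 CPM at 36.5 dpp, and Matn1, another cartilage marker, was at 0 in both 36.5 dpp libraries. The part of other tissue in Col2a1 was not tested.

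All 6 type IV genes were higher at D30 than at 36.5 dpp, and at D16 Col4a1 and Col4a2 were called higher than at 22.5 dpp while the other 4 were not called. Col4a1 (NCBI gene 12826) encodes the α1 chain. The level of Col4a1 was 1167, 1230, 1345 and 370 CPM at 6.5 dpp, 916, 1061 and 1082 at 10.5 dpp, 268, 489 and 257 at 22.5 dpp and 29.1 and 42.3 at 36.5 dpp. In culture the level was 1184, 1638 and 1449 CPM at D4, 761 and 749 at D16 and 477, 316, 464 and 374 at D30. Its D16 and D30 libraries were all above the testis libraries of matched age. Col4a2 (NCBI gene 12827) encodes the α2 chain. Col4a2 stood at 754, 780, 751 and 185 CPM at 6.5 dpp, 609, 703 and 712 at 10.5 dpp, 175, 334 and 171 at 22.5 dpp and 21.2 and 31.7 at 36.5 dpp. In the explants it stood at 950, 1205 and 1136 CPM at D4, 500 and 589 at D16 and 362, 229, 369 and 276 at D30. Its D4 libraries were above all others and its 36.5 dpp libraries below all others. Col4a3 (NCBI gene 12828) encodes the α3 chain of the second trimer. Col4a3 was at 120, 117, 103 and 25.5 CPM at 6.5 dpp, 126, 123 and 135 at 10.5 dpp, 71.3, 119 and 56 at 22.5 dpp and 11.1 and 15.5 at 36.5 dpp. The explants held 78.3, 80.0 and 66.5 CPM at D4, 27.4 and 49.1 at D16 and 47.2, 33.5, 64.8 and 34 at D30. In contrast to the first pair, its D4 libraries lay below all 10.5 dpp libraries. Col4a4 (NCBI gene 12829), its head-to-head neighbour, encodes the α4 chain. In vivo Col4a4 was at 346, 409, 343 and 108 CPM at 6.5 dpp, 351, 319 and 359 at 10.5 dpp, 141, 227 and 119 at 22.5 dpp and 23 and 30.3 at 36.5 dpp. Culture values were 199, 206 and 195 CPM at D4, 72.2 and 115 at D16 and 96.4, 71.7, 149 and 80.3 at D30. Here too the D4 libraries lay below those of 10.5 dpp, and the D16 libraries below those of 22.5 dpp. Col4a5 (NCBI gene 12830) encodes the α5 chain, which completes the second trimer. The level of Col4a5 was 119, 128, 137 and 51.6 CPM at 6.5 dpp, 111, 102 and 117 at 10.5 dpp, 51.3, 74.5 and 44.5 at 22.5 dpp and 8.14 and 7.82 at 36.5 dpp. In culture it was at 130, 153 and 117 CPM at D4, 65.6 and 95.8 at D16 and 71.3, 58.7, 107 and 74.8 at D30. All D30 libraries of Col4a5 were above both 36.5 dpp libraries. Col4a6 (NCBI gene 94216), whose chain joins α5 in some basement membranes, reached at most 8.28 CPM in any library.

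**Figure D4:**
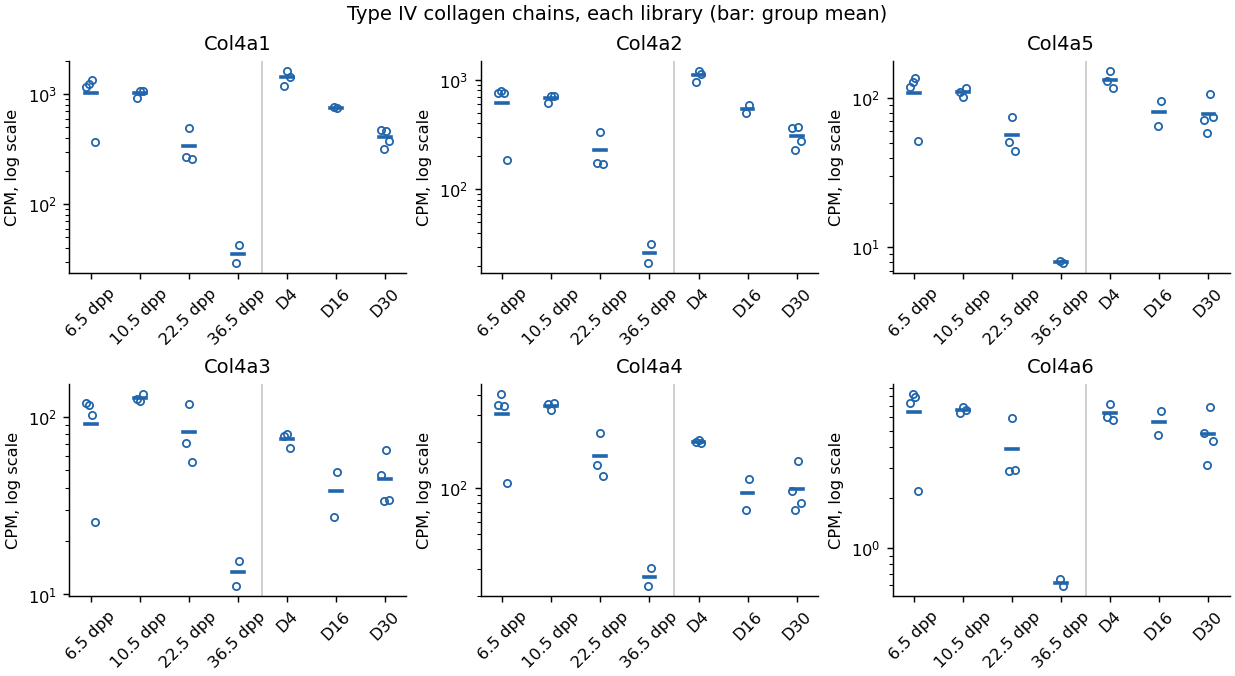
Level (CPM, log axis) of the 6 type IV collagen genes in each library, with bars at group means, at 4 ages in vivo and 3 culture times. Col4a1 and Col4a2 stand higher in the D4 libraries than at 10.5 dpp, whereas Col4a3 and Col4a4 stand lower, and all 6 are lowest at 36.5 dpp.

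From 10.5 to 22.5 dpp the log2 fold change was -1.32 ± 0.33 (adjusted p = 0.00197) for Col4a1 and -1.30 ± 0.36 (adjusted p = 0.00446) for Col4a2. Col4a4, at -0.80 ± 0.34 (adjusted p = 0.0477), and Col4a5, at -0.67 ± 0.26 (adjusted p = 0.0341), fell less, and these calls were lost in 9 and 4 of the alternative fits, single 10.5 and 22.5 dpp libraries among those left out (adjusted p up to 0.166 and 0.131). From 22.5 to 36.5 dpp all 6 genes fell, with log2 fold changes of -2.71 ± 0.40 (adjusted p = 4.82e-05) for Col4a1, -2.09 ± 0.47 (adjusted p = 0.00156) for Col4a3 and -2.31 ± 0.32 (adjusted p = 2.69e-05) for Col4a5. At D30 all 6 exceeded 36.5 dpp, Col4a1 by 2.87 ± 0.40 (adjusted p = 9.92e-06), Col4a2 by 2.90 ± 0.44 (adjusted p = 2.36e-05) and Col4a5 by 2.64 ± 0.32 (adjusted p = 2.74e-06). The estimates were 1.25 ± 0.38 (adjusted p = 0.00785) for Col4a4 and 1.10 ± 0.44 (adjusted p = 0.033) for Col4a3, the latter call being lost in 7 alternative fits, among them those without either 36.5 dpp library (adjusted p up to 0.215), and the former without 36.5 dpp replicate 1 (0.0891). At D16 Col4a1 exceeded 22.5 dpp by 1.03 ± 0.35 (adjusted p = 0.0413) and Col4a2 by 1.13 ± 0.39 (adjusted p = 0.0415). Both calls were lost without 22.5 dpp replicate 1 or 3 or either D16 library, with an adjusted p of up to 0.174 and 0.224. Col4a3, at -1.24 ± 0.45 (adjusted p = 0.0516), and Col4a4, at -0.94 ± 0.39 (adjusted p = 0.0817), had negative estimates that missed the threshold. At D4 against 10.5 dpp none of these 4 genes was called, with 0.57 ± 0.32 (adjusted p = 0.383) for Col4a1 and -0.69 ± 0.34 (adjusted p = 0.284) for Col4a4.

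Protein and assembly of the first and the second network were not measured, but mRNA of a chain from each can be set side by side. The ratio of Col4a1 to Col4a4 counts within each library was chosen after the values were seen and is given as a description. It was 3.38, 3.00, 3.92 and 3.44 at 6.5 dpp, 2.61, 3.33 and 3.01 at 10.5 dpp, 1.90, 2.15 and 2.16 at 22.5 dpp and 1.26 and 1.40 at 36.5 dpp. In culture it was 5.94, 7.95 and 7.43 at D4, 10.5 and 6.51 at D16 and 4.95, 4.41, 3.12 and 4.66 at D30. Every D4 and D16 library was above every in vivo library used. Of the D30 libraries, fresh replicate 3 (3.12) lay within the 6.5 and 10.5 dpp range and the others lay above it. All D30 libraries were above both 36.5 dpp libraries. Per kilobase of transcript the group means of this ratio were 4.56 ± 0.549 (SD, n = 3) at 10.5 dpp, 2.03 ± 0.145 (SD, n = 2) at 36.5 dpp and 10.9 ± 1.59 (SD, n = 3) at D4. Among the 21 libraries the ratio of Col4a1 to Col4a2 counts ran from 1.25 to 2.00 and that of Col4a3 to Col4a4 counts from 0.237 to 0.523.

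Type VI collagen forms beaded microfibrils around cells and next to basement membranes. Col6a1 stood at 681, 694, 722 and 356 CPM at 6.5 dpp, 610, 628 and 643 at 10.5 dpp, 110, 170 and 116 at 22.5 dpp and 12.5 and 19.2 at 36.5 dpp. The cultures held 579, 726 and 751 CPM at D4, 204 and 239 at D16 and 161, 124, 234 and 150 at D30. The D4 libraries of Col6a1, an obligatory chain, overlapped those of 6.5 dpp. Col6a2 was at 567, 589, 627 and 295 CPM at 6.5 dpp, 469, 465 and 489 at 10.5 dpp, 58.2, 96.3 and 62.7 at 22.5 dpp and 6.59 and 11.2 at 36.5 dpp. Cultured tissue was at 491, 622 and 619 CPM at D4, 174 and 180 at D16 and 107, 81.1, 144 and 102 at D30. Col6a2, the other obligatory chain, was likewise lowest in both 36.5 dpp libraries. In vivo Col6a3 was at 228, 202, 209 and 61.2 CPM at 6.5 dpp, 177, 179 and 189 at 10.5 dpp, 32.1, 66.1 and 29 at 22.5 dpp and 4.66 and 9.23 at 36.5 dpp. In culture the level was 238, 284 and 237 CPM at D4, 59.4 and 73.1 at D16 and 39.8, 28.4, 47 and 28.3 at D30. Col6a3 encodes the long chain that completes the usual trimer, and both 36.5 dpp libraries were again the lowest. From 10.5 to 22.5 dpp the log2 fold change was -1.97 ± 0.25 (adjusted p = 2.82e-06) for Col6a1, -2.43 ± 0.26 (adjusted p = 3.67e-07) for Col6a2 and -1.83 ± 0.37 (adjusted p = 0.000367) for Col6a3. At D30 Col6a1 and Col6a2 were above 36.5 dpp by 2.75 ± 0.29 (adjusted p = 7.42e-07) and 2.95 ± 0.30 (adjusted p = 5.21e-07). Col6a4, Col6a5 and Col6a6 encode chains that can take the place of α3. The level of Col6a4 was 37.8, 22, 28.8 and 5.22 CPM at 6.5 dpp, 40.1, 38.4 and 42.7 at 10.5 dpp, 22.7, 33.7 and 26.1 at 22.5 dpp and 21.7 and 39.4 at 36.5 dpp. In the explants it stood at 14.1, 17.2 and 19.1 CPM at D4, 14.9 and 13 at D16 and 17.4, 11.4, 19.3 and 11.2 at D30. The 36.5 dpp libraries of Col6a4 differed from each other and overlapped those of 10.5 dpp. Col6a6 stood at 25.4, 22.6, 28.5 and 7.12 CPM at 6.5 dpp, 21.5, 20.1 and 23.2 at 10.5 dpp, 5.68, 6.16 and 6.04 at 22.5 dpp and 2.52 and 4.81 at 36.5 dpp. The explants held 10.2, 12.6 and 11.2 CPM at D4, 6.03 and 13.6 at D16 and 11.6, 7.65, 18.8 and 9.14 at D30. Col6a6 had its highest group means at 6.5 and 10.5 dpp. Col6a5, at most 11.4 CPM in any library, rose from 10.5 to 22.5 dpp by 1.69 ± 0.46 (adjusted p = 0.00391).

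The multiplexins Col18a1 and Col15a1 are proteoglycan collagens of basement membrane zones, and their C-terminal fragments are endostatin and restin. Col18a1 was at 806, 521, 442 and 262 CPM at 6.5 dpp, 786, 970 and 887 at 10.5 dpp, 204, 290 and 203 at 22.5 dpp and 15.4 and 15.4 at 36.5 dpp. Culture values were 657, 724 and 722 CPM at D4, 285 and 277 at D16 and 270, 177, 250 and 207 at D30. Col18a1 (NCBI gene 12822, chr10:77052178-77166530) had the steepest fall of any collagen gene from 22.5 to 36.5 dpp, -3.40 ± 0.33 (adjusted p = 6.55e-07). In vivo Col15a1 was at 142, 183, 205 and 71.7 CPM at 6.5 dpp, 115, 152 and 132 at 10.5 dpp, 40.2, 81 and 40.7 at 22.5 dpp and 21.1 and 24.9 at 36.5 dpp. In culture it was at 297, 359 and 330 CPM at D4, 157 and 134 at D16 and 106, 73.6, 87 and 95.5 at D30. Col15a1 (NCBI gene 12819, chr4:47207655-47313167) was higher in all 3 D4 libraries than in any in vivo library. It exceeded 10.5 dpp at D4 by 1.39 ± 0.28 (adjusted p = 0.00398) and 22.5 dpp at D16 by 1.30 ± 0.31 (adjusted p = 0.00679), and the first of these calls held in every alternative fit. At D30 Col18a1 exceeded 36.5 dpp by 3.24 ± 0.33 (adjusted p = 4.09e-07). The ratio of Col18a1 to Col15a1 counts was 6.64 ± 0.24 (SD, n = 3) at 10.5 dpp, 0.674 ± 0.0812 (SD, n = 2) at 36.5 dpp and 2.14 ± 0.108 (SD, n = 3) at D4.

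The FACITs attach to the surface of fibrils and link them to the matrix around them. Col22a1 (NCBI gene 69700, chr15:71795795-72150979) is known from tissue junctions such as the ends of muscle fibres. The level of Col22a1 was 22.7, 21.2, 18.7 and 5.57 CPM at 6.5 dpp, 28.8, 32.2 and 33.1 at 10.5 dpp, 42, 24.1 and 42.2 at 22.5 dpp and 240 and 346 at 36.5 dpp. The cultures held 22.6, 28.4 and 31.5 CPM at D4, 18.8 and 15.6 at D16 and 54.8, 27.7, 28.3 and 21.9 at D30. Both 36.5 dpp libraries were far above the next highest library, a D30 library at 54.8 CPM. It rose by 3.51 ± 0.45 (adjusted p = 1.2e-05) from 22.5 to 36.5 dpp, and at D30 it was below 36.5 dpp, with a log2 fold change of -3.77 ± 0.41 (adjusted p = 9.37e-07). Col20a1 (NCBI gene 73368, chr2:180983323-181017545), the little-studied FACIT for which sequence before the RefSeq start is printed above, rose at both steps. Col20a1 stood at 3.67, 4.14, 3.75 and 1.41 CPM at 6.5 dpp, 5.70, 6.87 and 7.73 at 10.5 dpp, 34.6, 29.5 and 36.4 at 22.5 dpp and 108 and 69.1 at 36.5 dpp. Cultured tissue was at 5.11, 4.77 and 6.21 CPM at D4, 11.7 and 14 at D16 and 25.7, 17.6, 9.19 and 10.3 at D30. The 22.5 dpp libraries were above all younger ones and the 36.5 dpp libraries above all others. The rise was 2.61 ± 0.38 (adjusted p = 1.45e-05) from 10.5 to 22.5 dpp and 1.90 ± 0.40 (adjusted p = 0.000811) from 22.5 to 36.5 dpp, and the log2 fold change of D30 against 36.5 dpp was -3.11 ± 0.37 (adjusted p = 2.05e-06). A second transcript on the same strand is annotated across the start of this gene, so its count is uncertain.

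**Figure D5:**
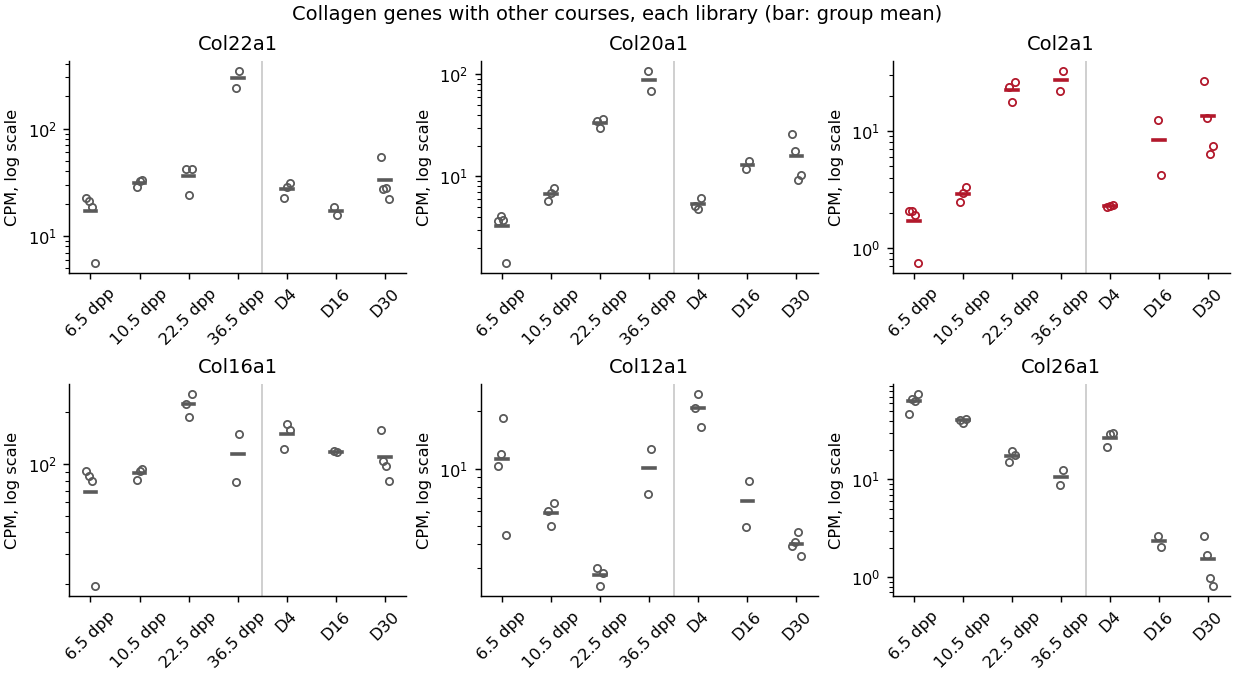
Level (CPM, log axis) of Col22a1, Col20a1, Col2a1, Col16a1, Col12a1 and Col26a1 in each library, with bars at group means. Col22a1 and Col20a1 peak at 36.5 dpp, Col12a1 has its highest group mean at D4 and Col26a1 is at its lowest in the D16 and D30 libraries.

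Col19a1, a FACIT of some basement membrane zones, was near 0 before 22.5 dpp. Col19a1 was at 0.0418, 0.0416, 0.122 and 0 CPM at 6.5 dpp, 0.0898, 0.139 and 0.0546 at 10.5 dpp, 1.40, 0.68 and 1.26 at 22.5 dpp and 1.93 and 2.85 at 36.5 dpp. In culture the level was 0.0929, 0.144 and 0.0579 CPM at D4, 0.628 and 0.109 at D16 and 0.749, 0.481, 0.176 and 0.402 at D30. It had no count in 6.5 dpp CSF replicate 3, where a count of 0 allows up to 0.106 CPM (3 counts, counting error only). All 22.5 and 36.5 dpp libraries were above all 6.5 and 10.5 dpp libraries, the rise from 10.5 to 22.5 dpp being 3.88 ± 0.70 (adjusted p = 0.000135) on few counts. Col16a1, which binds integrins near basement membranes, peaked at 22.5 dpp. In vivo Col16a1 was at 90.6, 85.7, 79.7 and 19.3 CPM at 6.5 dpp, 80.7, 91.5 and 94 at 10.5 dpp, 223, 189 and 257 at 22.5 dpp and 78.8 and 150 at 36.5 dpp. In the explants it stood at 123, 171 and 157 CPM at D4, 119 and 117 at D16 and 158, 104, 97.9 and 79.2 at D30. Its 22.5 dpp libraries were above all others used. The left-out 6.5 dpp fresh replicate 1 held 196 CPM of Col16a1, above 22.5 dpp replicate 2 (189). Col16a1 rose by 1.64 ± 0.40 (adjusted p = 0.00167) from 10.5 to 22.5 dpp and by 1.17 ± 0.36 (adjusted p = 0.0268) from 6.5 dpp to D4. The latter call was lost without D4 replicate 2 or 3 and with 6.5 dpp fresh replicate 1 kept (adjusted p up to 0.367). Col12a1, a FACIT of tissues under tension, was the called gene with the largest excess at D4 over 10.5 dpp. The level of Col12a1 was 10.3, 11.9, 18.4 and 4.48 CPM at 6.5 dpp, 5.99, 5.03 and 6.64 at 10.5 dpp, 3.01, 2.41 and 2.84 at 22.5 dpp and 7.40 and 12.7 at 36.5 dpp. The explants held 20.9, 24.7 and 16.6 CPM at D4, 4.95 and 8.63 at D16 and 3.91, 4.10, 4.63 and 3.47 at D30. The D4 libraries were above all 10.5 and 22.5 dpp libraries and overlapped those of 6.5 dpp. The excess over 10.5 dpp was 1.90 ± 0.36 (adjusted p = 0.00214), called in every alternative fit, and at D30 the sign against 36.5 dpp was the opposite, -1.96 ± 0.35 (adjusted p = 0.000125). Col14a1, a related FACIT, had its highest group means at 6.5 and 10.5 dpp. Col14a1 stood at 26, 22, 28.7 and 7.72 CPM at 6.5 dpp, 20.7, 24.3 and 21.8 at 10.5 dpp, 11, 8.20 and 9.26 at 22.5 dpp and 10.8 and 13.8 at 36.5 dpp. Culture values were 15.3, 19.3 and 16.6 CPM at D4, 7.04 and 7.21 at D16 and 10.0, 7.40, 9.07 and 9.75 at D30. The 22.5 and 36.5 dpp libraries of Col14a1 overlapped each other.

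The 3 chains of type IX collagen, which form a heterotrimer on cartilage fibrils, had unlike courses. Col9a1 was at 2.99, 2.16, 2.19 and 0.811 CPM at 6.5 dpp, 1.89, 3.03 and 2.02 at 10.5 dpp, 4.28, 2.43 and 3.73 at 22.5 dpp and 1.75 and 2.62 at 36.5 dpp. In culture it was at 0.929, 1.01 and 0.971 CPM at D4, 0.905 and 0.306 at D16 and 0.773, 0.887, 0.227 and 0.201 at D30. Col9a1 was lower in both D16 libraries than in all 22.5 dpp libraries, at -2.70 ± 0.65 (adjusted p = 0.00808), a call lost without D16 replicate 2 (adjusted p up to 0.139). In vivo Col9a2 was at 11.5, 7.74, 8.78 and 3.84 CPM at 6.5 dpp, 6.85, 7.98 and 8.26 at 10.5 dpp, 0.528, 0.505 and 0.411 at 22.5 dpp and 0.0594 and 0.154 at 36.5 dpp. The cultures held 4.30, 5.30 and 5.42 CPM at D4, 0.402 and 0.677 at D16 and 0.41, 0.532, 0.73 and 0.377 at D30. Col9a2 had the largest fall of the family from 10.5 to 22.5 dpp, -3.69 ± 0.36 (adjusted p = 1.45e-07), and fell from D4 to D16, -3.15 ± 0.41 (adjusted p = 1.38e-05). The level of Col9a3 was 24.5, 13.3, 15.3 and 8.71 CPM at 6.5 dpp, 17.5, 21 and 21.1 at 10.5 dpp, 4.09, 6.23 and 4.90 at 22.5 dpp and 10.5 and 14.5 at 36.5 dpp. Cultured tissue was at 23, 24.1 and 24.7 CPM at D4, 5.15 and 5.22 at D16 and 11, 8.06, 10.1 and 9.39 at D30. Col9a3 fell from D4 to D16, -2.15 ± 0.31 (adjusted p = 3.52e-05), but rose from 22.5 to 36.5 dpp, 1.82 ± 0.28 (adjusted p = 6.61e-05).

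The transmembrane collagens sit in the cell surface and can shed their collagenous part. Col13a1 stood at 32.7, 43.2, 42.9 and 13.3 CPM at 6.5 dpp, 23.2, 19.9 and 21.6 at 10.5 dpp, 2.35, 4.98 and 2.21 at 22.5 dpp and 0.564 and 0.437 at 36.5 dpp. In culture the level was 19.2, 22.8 and 22.5 CPM at D4, 8.17 and 10.9 at D16 and 9.68, 6.64, 9.52 and 9.17 at D30. Col13a1 (NCBI gene 12817, chr10:61838234-61979206), found at cell-matrix contacts, fell from 10.5 to 22.5 dpp, -2.49 ± 0.33 (adjusted p = 5.89e-06). At D30 it exceeded 36.5 dpp by 3.49 ± 0.43 (adjusted p = 3.06e-06), the largest positive difference of that comparison. Col25a1 was at 10.1, 17.8, 22.2 and 7.23 CPM at 6.5 dpp, 9.34, 6.01 and 8.82 at 10.5 dpp, 1.40, 1.51 and 1.23 at 22.5 dpp and 1.93 and 2.03 at 36.5 dpp. In the explants it stood at 20.1, 18.2 and 13.9 CPM at D4, 4.07 and 6.73 at D16 and 2.49, 2.28, 2.54 and 1.68 at D30. Col25a1, whose product binds amyloid in brain, exceeded 10.5 dpp at D4 by 1.20 ± 0.32 (adjusted p = 0.0253) and 22.5 dpp at D16 by 1.80 ± 0.36 (adjusted p = 0.00232), without overlap in either pair. In vivo Col23a1 was at 50.2, 63.2, 57.3 and 21.7 CPM at 6.5 dpp, 38.7, 45.9 and 41.3 at 10.5 dpp, 8.11, 14.1 and 8.16 at 22.5 dpp and 6.15 and 7.05 at 36.5 dpp. The explants held 36, 43.2 and 40.5 CPM at D4, 22.8 and 27.9 at D16 and 18.2, 14.8, 24.5 and 18.9 at D30. Col23a1 was higher in both D16 libraries than in all 22.5 dpp libraries, by 1.18 ± 0.30 (adjusted p = 0.0096). The D16 calls of Col25a1 and Col23a1 were lost without D16 replicate 2, and the D4 call of Col25a1 without any single 10.5 dpp library or without D4 replicate 1 or 2, with an adjusted p of up to 0.0612, 0.106 and 0.147. The level of Col17a1 was 13.1, 15.8, 13.4 and 11 CPM at 6.5 dpp, 15.9, 20.2 and 18 at 10.5 dpp, 7.71, 12.2 and 7.78 at 22.5 dpp and 3.53 and 5.94 at 36.5 dpp. Culture values were 11.7, 12.1 and 11.9 CPM at D4, 8.62 and 9.07 at D16 and 9.92, 6.46, 11 and 7.26 at D30. Col17a1, the collagen of epithelial hemidesmosomes, had overlapping levels at D16 and 22.5 dpp and lower ones at 36.5 dpp.

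Col26a1 (NCBI gene 140709, chr5:136741759-136883376), a short collagen known from testis and ovary, was nearly lost from the cultures by D16. Col26a1 stood at 46.8, 66.2, 63.8 and 75.2 CPM at 6.5 dpp, 40.6, 38 and 41.8 at 10.5 dpp, 15.2, 19.5 and 17.7 at 22.5 dpp and 8.82 and 12.6 at 36.5 dpp. In culture it was at 21.3, 29.3 and 29.7 CPM at D4, 2.61 and 2.05 at D16 and 2.66, 1.67, 0.982 and 0.804 at D30. All D16 and D30 libraries were below every in vivo library used. The left-out 6.5 dpp fresh replicate 1, at 1.43 CPM, lay among them. The D4 libraries were below the 6.5 dpp libraries used, but no test of that pair is given, since the level of this gene was among the grounds for leaving out 6.5 dpp fresh replicate 1. With that library kept the log2 fold change of D4 against 6.5 dpp was -0.91 (adjusted p = 0.372). It was lower at D16 than at D4, -3.46 ± 0.43 (adjusted p = 6.73e-06). Against testis of matched age the log2 fold change was -3.05 ± 0.42 (adjusted p = 9.09e-05) at D16 and -3.43 ± 0.35 (adjusted p = 4.34e-07) at D30, and both calls held in every alternative fit. In vivo it fell from 10.5 to 22.5 dpp, -0.91 ± 0.33 (adjusted p = 0.0222). The in vivo call was lost without 10.5 dpp replicate 3 or 22.5 dpp replicate 1, with an adjusted p of up to 0.291. Unlike most collagen genes, it was not low in 6.5 dpp CSF replicate 3, which was the highest of its group.

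Col28a1, a collagen with von Willebrand A domains known from nerve, rose in both settings. Col28a1 was at 0.543, 0.873, 0.438 and 0.0705 CPM at 6.5 dpp, 0.539, 1.08 and 0.727 at 10.5 dpp, 5.57, 6.36 and 4.84 at 22.5 dpp and 2.05 and 2.44 at 36.5 dpp. The cultures held 2.28, 2.11 and 1.65 CPM at D4, 3.62 and 3.47 at D16 and 4.59, 3.17, 5.19 and 4.02 at D30. Among the libraries used, all those of 22.5 and 36.5 dpp were above all younger in vivo ones, and all D4 libraries above all 6.5 dpp libraries. The left-out 6.5 dpp fresh replicate 1 held 4.9 CPM of Col28a1, above every D4 library. With that library kept the gene was not called at D4 against 6.5 dpp, the adjusted p reaching 0.717 over the alternative fits. In the main fit Col28a1 rose by 3.13 ± 0.43 (adjusted p = 8.26e-06) from 10.5 to 22.5 dpp and by 2.06 ± 0.39 (adjusted p = 0.00108) from 6.5 dpp to D4. Col8a1 and Col8a2 encode the short-chain network collagen of vessel walls and the cornea. In vivo Col8a1 was at 1.98, 1.27, 2.09 and 0.917 CPM at 6.5 dpp, 2.42, 1.47 and 1.95 at 10.5 dpp, 1.19, 1.45 and 0.79 at 22.5 dpp and 3.48 and 1.83 at 36.5 dpp. Cultured tissue was at 0.279, 0.695 and 0.753 CPM at D4, 0.478 and 0.306 at D16 and 0.918, 1.09, 1.06 and 0.603 at D30. Col8a1 was lower in all D4 than in all 10.5 dpp libraries, -1.66 ± 0.40 (adjusted p = 0.0131), the sole fall of that comparison, lost without 10.5 dpp replicate 1 or D4 replicate 1 (adjusted p up to 0.116). The level of Col8a2 was 20.3, 28, 24.8 and 11.6 CPM at 6.5 dpp, 20.6, 19.7 and 23.1 at 10.5 dpp, 4.12, 6.58 and 3.16 at 22.5 dpp and 0.861 and 1.00 at 36.5 dpp. In culture the level was 15, 18.2 and 17.6 CPM at D4, 6.16 and 10.4 at D16 and 4.78, 3.34, 10.0 and 5.10 at D30. Col8a2 was lowest at 36.5 dpp, as the type I chains were. Col7a1, the anchoring fibril chain, lay between 1.06 and 11.1 CPM and rose from 6.5 dpp to D4 by 1.20 ± 0.36 (adjusted p = 0.0257). That call was lost without D4 replicate 2 or 3 and with 6.5 dpp fresh replicate 1 kept (adjusted p up to 0.219). Col10a1, the collagen of hypertrophic cartilage, reached at most 0.882 CPM.

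The gap between culture and testis changed from D4 to D30 for 11 of the 44 genes. Tested as the difference between D30 against 36.5 dpp and D4 against 10.5 dpp, at a 4-fold difference and an adjusted p of at most 0.001, 7 genes were higher and 4 lower, against 4.96% and 4.56% of all genes; scaling by library size alone gave 16 and 3. The increases were 3.48 ± 0.40 (adjusted p = 9.01e-06) for Col18a1, 3.41 ± 0.52 (adjusted p = 7.66e-05) for Col13a1, 2.58 ± 0.37 (adjusted p = 5.05e-05) for Col6a2 and 2.53 ± 0.36 (adjusted p = 4.9e-05) for Col6a1. They were 2.27 ± 0.40 (adjusted p = 0.00025) for Col4a5, 2.16 ± 0.39 (adjusted p = 0.000315) for Col5a2 and 2.10 ± 0.43 (adjusted p = 0.000805) for Col1a2, and the call for Col1a2 was lost in 14 alternative fits. Without 36.5 dpp replicate 2 the calls for Col13a1, Col26a1, Col4a5, Col5a2 and Col1a2 were lost, without 36.5 dpp replicate 1 or D4 replicate 3 those for Col4a5, Col5a2, Col1a2 and Col20a1, and without 10.5 dpp replicate 1 or 2 those for Col1a2 and Col20a1. The decreases were -3.87 ± 0.50 (adjusted p = 2.19e-05) for Col12a1, -3.67 ± 0.57 (adjusted p = 9.91e-05) for Col22a1, -2.93 ± 0.48 (adjusted p = 0.000135) for Col26a1 and -2.86 ± 0.52 (adjusted p = 0.000334) for Col20a1. The calls for Col12a1, Col18a1 and Col22a1 held in every alternative fit. Without 36.5 dpp replicate 1 or D4 replicate 3 there were 7 called genes, and without 36.5 dpp replicate 2 there were 6.

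No effect of freezing on collagen genes was detectable with these libraries. With the 6.5 dpp and D30 contrasts of CSF against fresh averaged, edgeR called 0 of 44 collagen genes and 0% of 19758 genes; at an unadjusted p under 0.05 there were 3 collagen genes, and DESeq2 called 0, with 4 at an unadjusted p under 0.05. The median difference was -0.31 on the log2 scale over the 44 genes and -0.07 over all genes. A single fresh library at 6.5 dpp and a single CSF library at D30 limit this comparison.

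Most genes whose products make, trim or bind collagen fell with age. Of 17 genes for chain modification, folding and secretion, 12 fell and 1 rose from 10.5 to 22.5 dpp, against 27.9% and 33.6% of all genes tested. Among them were Serpinh1, the collagen chaperone HSP47, at -2.22 ± 0.22 (adjusted p = 1.53e-07), and P3h3, a prolyl 3-hydroxylase, at -2.29 ± 0.22 (adjusted p = 1.29e-07). Of 13 genes for propeptide removal and crosslinking 9 fell, with -2.68 ± 0.24 (adjusted p = 5.38e-08) for Bmp1, the procollagen C-proteinase, and -2.17 ± 0.27 (adjusted p = 2.33e-06) for Lox, the lysyl oxidase that crosslinks fibrils. Of 16 basement membrane partners (laminins, nidogens, perlecan and others) 13 fell and 1, Lamb3, rose. Of 13 fibril partners 11 fell, and of 9 collagen receptors 5 fell and 1 rose. The median log2 fold change was -0.93 for modification, -1.25 for crosslinking, -1.37 for basement membrane partners, -1.74 for fibril partners and -0.86 for receptors. From 22.5 to 36.5 dpp 10 of 17 modification genes, 9 of 13 crosslinking genes, 12 of 16 basement membrane partners, 9 of 13 fibril partners and 4 of 9 receptors fell, while 1, 3, 1, 1 and 3 rose, against 27.5% and 23.3% of all genes tested.

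In culture, genes of crosslinking and fibril binding were among those raised early. At D4 against 10.5 dpp, 3 of the 17 modification genes, 4 of the 13 crosslinking genes and 3 of the 13 fibril partners were higher and none lower, against 4.92% and 3.18% of all genes tested. Loxl2, a lysyl oxidase of basement membranes, was higher by 2.56 ± 0.28 (adjusted p = 8.78e-06), and Postn, the periostin of fibrous tissue, by 2.05 ± 0.30 (adjusted p = 0.000197). Sparc, a chaperone-like partner of type IV collagen, was the sole basement membrane partner called, at 0.91 ± 0.24 (adjusted p = 0.0228). Of the 9 receptors 2 were higher at D4 and none lower. At D16 against 22.5 dpp 9 of 13 fibril partners and 6 of 13 crosslinking genes were higher and none lower, against 14.0% and 11.8% of all genes, with Lum, a fibril-spacing proteoglycan, at 2.64 ± 0.28 (adjusted p = 5.79e-06). In the same comparison 7 of 17 modification genes were higher and 1 lower. Of 16 basement membrane partners 2 were higher and of 9 receptors 3, with none lower. At D30 against 36.5 dpp, 15 of 16 basement membrane partners and 11 of 13 fibril partners were higher, with 1 lower in each, against 32.4% and 35.0% of all genes. The corresponding counts were 13 of 17 modification genes higher and 3 lower, 8 of 13 crosslinking genes higher and 1 lower, and 5 of 9 receptors higher and 3 lower. The median log2 fold change was 1.90 for basement membrane partners and 1.82 for fibril partners. Nid2, a nidogen that ties laminin to type IV collagen, stood at 2.04 ± 0.29 (adjusted p = 1.14e-05), and Plod2, a lysyl hydroxylase, at 3.09 ± 0.24 (adjusted p = 3.86e-08). Ddr1, a receptor kinase for collagen, was higher at D30 by 4.05 ± 0.33 (adjusted p = 6.5e-08), whereas Pcolce2, an enhancer of procollagen trimming, was lower, -3.21 ± 0.32 (adjusted p = 4.06e-07). From D16 to D30 1 fibril partner rose and 3 fell, and no gene of the other 4 lists was called.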

How the data were processed

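The authors deposited 1 table of raw counts per gene, keyed by NCBI mouse gene identifiers; the submitters' processing notes name bcl2fastq 2.17.1.14, STAR 2.7.3a, HTSeq 0.12.4 and the GRCm38 (mm10) build. Libraries were made with a stranded poly(A) kit and read as single reads of 50 bases. The strand setting used for counting is not given in the sources used here, so genes that overlap on either strand are uncertain. Rows without a symbol held 0.0204% of counts.

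CPM were computed on library totals (28351546 to 69029328). Genes were filtered with filterByExpr and fitted in edgeR 4.0.16 (R 4.3.3) by the quasi-likelihood test with TMM factors, 1 mean for each of the 7 groups of the 21 libraries and fresh and CSF libraries together; freezing was tested in a fit of 9 groups over 19758 genes. Adjusted p-values are Benjamini-Hochberg over all genes tested, and the SE is the log2 fold change divided by the square root of F. The difference between culture effects used thresholds of 4-fold and an adjusted p of at most 0.001, which the study's methods use. DESeq2 1.42.0, other scalings, filters, sample sets and leaving out each library in turn were the alternatives. In simulated counts for D30 against 36.5 dpp, 138 of 200 genes changed 4-fold (69%) were recovered among 19255, with 7 unchanged genes called.

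Comparisons that share a group (such as 22.5 dpp in both later age steps) share its libraries, so their values are given side by side only. Described with values are members with a mean of at least 10 CPM, or among the 3 largest called changes of a comparison, with chains of their trimers, and for partner lists the 3 called genes with the smallest p. Members and lists were chosen with earlier results of these data known. Ratios per kilobase use the longest principal protein-coding GENCODE M21 transcript. A count of 0 was given a limit of 3 counts.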

Additional observations from a re-analysis of the deposited data

Results flagged for a closer look

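In groups of 4 libraries, 9 of 90 tests found a library far from its group by Dixon's criterion, where chance gives about 1 in 20 for a single test. The tests reuse the same libraries and are not independent, so the count cannot be judged against that rate. Of the 9 flags, 8 were the lowest value of the 6.5 dpp group in CSF replicate 3. They were the collagen share of counts (0.413% against 1.02% to 1.14%), Col2a1 (0.741 CPM against 1.92 to 2.07), Col4a2 (185 against 751 to 780), Col4a6 (2.19 against 7.27 to 8.28), Col6a1 (356 against 681 to 722), Col6a3 (61.2 against 202 to 228), Col16a1 (19.3 against 79.7 to 90.6) and Col20a1 (1.41 against 3.67 to 4.14). The other was Col13a1 in D30 fresh replicate 2, at 6.64 CPM against 9.17 to 9.68 in the other D30 libraries.

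The culture effect differed between D30 and D4, by the test of the difference itself (log2 scale, D30 against 36.5 dpp minus D4 against 10.5 dpp), in 11 genes. The difference was 2.10 (adjusted p = 0.000805) for Col1a2, 2.27 (adjusted p = 0.00025) for Col4a5, 2.16 (adjusted p = 0.000315) for Col5a2, 2.53 (adjusted p = 4.9e-05) for Col6a1 and 2.58 (adjusted p = 5.05e-05) for Col6a2. It was 3.41 (adjusted p = 7.66e-05) for Col13a1 and 3.48 (adjusted p = 9.01e-06) for Col18a1. It was -3.87 (adjusted p = 2.19e-05) for Col12a1, -2.86 (adjusted p = 0.000334) for Col20a1, -3.67 (adjusted p = 9.91e-05) for Col22a1 and -2.93 (adjusted p = 0.000135) for Col26a1.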

How the results depend on the processing

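Of 145 gene values named in the text, 85 kept their direction and side of the threshold under every alternative and none reversed. Counts of called collagen genes moved more. For counts from alternative fits, here and above, the shares over all genes are not given, so they are no measure of collagens against other genes. Leaving out 1 library gave 0 to 1 for 10.5 against 6.5 dpp, 28 to 32 for 22.5 against 10.5 dpp, 23 to 28 for 36.5 against 22.5 dpp, 33 to 38 for 36.5 against 6.5 dpp, 6 to 16 for D4 against 6.5 dpp, 11 to 21 for D16 against D4, 0 to 2 for D30 against D16, 3 to 5 for D4 against 10.5 dpp, 2 to 18 for D16 against 22.5 dpp, 29 to 36 for D30 against 36.5 dpp, 6 to 11 for the difference of culture effects and 0 to 0 for freezing. Leaving 6.5 dpp CSF replicate 3 out of the whole fit, chosen after seeing the data, gave 1 for 10.5 against 6.5 dpp, 3 for D30 against D16, 26 for D16 against 22.5 dpp and 14 for D4 against 10.5 dpp. Keeping 6.5 dpp fresh replicate 1 gave 4 for D4 against 6.5 dpp, 13 for D16 against D4, 3 for D4 against 10.5 dpp, 4 for D16 against 22.5 dpp and 4 for the difference. Fresh libraries alone gave 2, 2, 11 and 24 for D4 against 6.5 dpp, D30 against D16, D4 against 10.5 dpp and D16 against 22.5 dpp. Fitting the compared groups alone gave 7, 29 and 6 for D4 against 6.5 dpp, D4 against 10.5 dpp and D16 against 22.5 dpp. DESeq2 gave 1 for 10.5 against 6.5 dpp, 3 for D30 against D16 and 25 for D16 against 22.5 dpp. Library size scaling gave 4 for D4 against 10.5 dpp and 19 for the difference. Thresholds of 4-fold and an adjusted p of at most 0.001 gave 11, 15, 0, 6, 0, 1 and 19 for 22.5 against 10.5 dpp, 36.5 against 22.5 dpp, D4 against 6.5 dpp, D16 against D4, D4 against 10.5 dpp, D16 against 22.5 dpp and D30 against 36.5 dpp, and an adjusted p under 0.05 alone gave 27 for the difference. Fits with fewer libraries gave fewer calls in some comparisons and more in others. The cause of these shifts was not tested, except that stricter thresholds leave fewer calls by construction.

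Same-numbered libraries did not deviate together throughout (correlations of 0.203, 0.0268 and -0.0083 for 10.5 dpp with D4 and -0.345, -0.325 and 0.433 for 36.5 dpp with D30, but 0.525 and 0.661 for the pairs of 22.5 dpp with D16), so the numbers are not taken to pair samples; with the replicate block 6 genes were called for D4 against 10.5 dpp, 14 for D16 against 22.5 dpp, 36 for D30 against 36.5 dpp and 11 for the difference. With TMM-scaled totals the collagen share was 0.832% at 10.5 dpp and 0.149% at 36.5 dpp. Without 1 library the share of the 6.5 dpp group ran from 0.83% to 1.07%, that of 10.5 dpp from 0.93% to 0.976%, that of 22.5 dpp from 0.26% to 0.329% and that of 36.5 dpp from 0.0824% to 0.112%. For D4 it ran from 1.39% to 1.56%, for D16 from 0.457% to 0.513% and for D30 from 0.298% to 0.357%. Against TMM, scaling by library size alone moved the median log2 fold change of all genes to -0.23 for 22.5 against 10.5 dpp, -0.63 for 36.5 against 22.5 dpp, -0.74 for 36.5 against 6.5 dpp and 0.60 for D30 against 36.5 dpp, and RLE factors moved the last to -0.29. Groups of 2 libraries at 36.5 dpp and D16 limit the precision, and genes under about 1 CPM rest on few counts.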
